A study of Mus musculus with 6 samples.

Results

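Collagen genes and the genes that process collagen were examined in RNA from whole mouse testes. The set takes every deposited gene whose symbol has the form of a collagen chain (41 genes) and 12 processing genes, namely Lox, Loxl1 to Loxl4, P4ha1, P4ha2, Plod1 to Plod3, Serpinh1 and Pcolce, 53 of 14998 genes in all. The mouse collagens Col9a1, Col19a1 and Col26a1 had no value analysed here. The set was divided by textbook class into 11 fibrillar collagens, 8 basement membrane collagens, 22 other collagens and 12 processing genes.

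Control mice carried floxed Lats1 and Lats2 alleles on both chromosomes (Lats1flox/flox;Lats2flox/flox, 3 libraries), and mice labelled knockout carried the same alleles with Amh-cre (3 libraries), a transgene whose promoter drives Cre recombinase in Sertoli cells. Both groups share the floxed alleles of the genes of LATS1 and LATS2, the Hippo pathway kinases that restrain YAP and TAZ, and where in the testis Cre was active was not measured. Strain and age are not given in the labels, which also do not say whether libraries come from different animals. P-values therefore measure the spread between libraries, which may be technical. The series' design text names adrenal glands, whereas the labels name testes, and in control libraries the summed FPKM was 896 to 977 for Leydig cell markers, 550.2 to 582 for Sertoli cell markers and 295 to 361 for spermatogonial markers, against 40.1 to 53.6 for adrenal cortex markers and 42.2 to 55.5 for adrenal medulla markers. In knockout libraries adrenal cortex markers summed to 62.7 to 73.6 FPKM, which overlapped the spermatogonial sum of 63.3 to 104 FPKM, and 3 of 6 were higher and 1 lower. Adrenal medulla markers summed to 6.62 to 11.8 FPKM there, with 3 of 4 lower. These counts rest on few genes and stand beside 35.2% higher and 33.7% lower of all genes tested. The sums are not on one scale, with 10 Leydig, 18 Sertoli, 13 spermatogonial, 6 adrenal cortex and 4 adrenal medulla genes. The Leydig sum does not separate the organs, since its steroid synthesis genes, such as Cyp11a1 and Star, also serve the adrenal cortex.

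Collagens are secreted proteins whose chains wind into a helix of Gly-X-Y repeats. Fibrillar collagens form the banded fibres of connective tissue, collagen IV forms the sheet of the basement membrane that surrounds testis cords and vessels, and other collagens bind to fibrils, form beaded filaments or span the cell membrane. Inside the cell prolyl and lysyl hydroxylases modify the chains and HSP47 holds the helix, and outside it lysyl oxidases cross-link the fibres. In the testis the cords are bounded by a basement membrane made by Sertoli cells together with peritubular myoid cells.

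Levels are given in the FPKM the authors deposited, fragments scaled to exon length and library size, which allow levels to be set side by side between genes. Whole reads recovered from the FPKM gave library totals of 9490735 to 13620087 reads. Spearman correlations across genes were 0.987 to 0.996 within groups and 0.845 to 0.871 between them. The targeted genes did not check the deletion, since Lats1 fell from 15.7 ± 0.569 to 12.7 ± 0.239 FPKM while Lats2 had 15.4, 14.5 and 17.0 FPKM in controls and 17.8, 18.2 and 18.1 FPKM in knockouts, against its label. Every direction below rests on those labels. At the highest levels FPKM depended on depth: among 113 genes with a mean of 80 FPKM or more the shallowest control library exceeded the deepest by a median of 0.13 on the log2 scale, against 0.04 among genes at 10 to 50 FPKM, so levels are less certain for the 5 members with such a mean (Col1a1, Col3a1, Col4a1, Col4a2 and Serpinh1) and for others that neared it in 1 group, such as Col6a1 in controls and Plod2 in knockouts.

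Gene pairs of collagen IV lie head to head, and the promoter windows of Col4a1, Col4a5 and Col4a6 are shown for that reason, with Col8a1 added as the member with the largest rise. Those of Col4a2, Col4a3 and Col4a4 are not shown. Each window runs from 250 bases before to 50 after the RefSeq gene start (GRCm38.p6), is written along the gene's own strand, and has in capitals any match on either strand to GGAATG (the core of the TEAD site through which YAP and TAZ act), CCAAT or TATAAA. No capital letters means no match in this window, and no matches overlapped in the windows shown. The Col4a1 window is chr8:11312777-11313076 on the minus strand, that of Col4a5 chrX:141475169-141475468 on the plus strand, that of Col4a6 chrX:141474027-141474326 on the minus strand, and that of Col8a1 chr16:57754688-57754987 on the minus strand.
Col4a1: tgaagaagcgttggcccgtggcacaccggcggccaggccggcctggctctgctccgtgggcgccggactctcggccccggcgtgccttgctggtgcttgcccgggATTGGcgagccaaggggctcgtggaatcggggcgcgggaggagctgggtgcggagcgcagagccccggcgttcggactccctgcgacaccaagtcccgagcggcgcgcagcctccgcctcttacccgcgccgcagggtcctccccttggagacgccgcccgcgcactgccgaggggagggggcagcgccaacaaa
Col4a5: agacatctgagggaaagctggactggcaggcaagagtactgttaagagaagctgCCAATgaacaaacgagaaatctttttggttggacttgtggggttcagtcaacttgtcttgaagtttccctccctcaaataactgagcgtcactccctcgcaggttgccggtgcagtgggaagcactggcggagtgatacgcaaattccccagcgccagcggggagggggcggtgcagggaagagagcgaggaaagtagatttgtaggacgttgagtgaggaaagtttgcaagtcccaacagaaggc
Col4a6: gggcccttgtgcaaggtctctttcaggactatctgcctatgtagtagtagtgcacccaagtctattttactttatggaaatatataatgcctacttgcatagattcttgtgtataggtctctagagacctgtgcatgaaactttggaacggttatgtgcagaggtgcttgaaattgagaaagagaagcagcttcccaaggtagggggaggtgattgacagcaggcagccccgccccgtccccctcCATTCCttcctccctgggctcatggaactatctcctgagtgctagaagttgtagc
Col8a1: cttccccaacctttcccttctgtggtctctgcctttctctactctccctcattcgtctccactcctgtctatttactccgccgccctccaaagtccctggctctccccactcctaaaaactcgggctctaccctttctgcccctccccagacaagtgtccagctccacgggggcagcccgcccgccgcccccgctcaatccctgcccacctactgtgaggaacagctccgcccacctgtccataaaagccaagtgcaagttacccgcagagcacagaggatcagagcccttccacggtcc
The starts of Col4a1 and Col4a2 lie 21 bases apart, so that their windows share 78 bases, whereas those of Col4a5 and Col4a6 lie 1343 bases apart. The window of Col4a2 has CCAAT on its own strand, at -32 from the gene start. GGAATG was found in 14.7% of 32851 RefSeq windows and in 5 of 42 windows of the 40 members that have one (Col3a1, Col4a6, Col6a2, Col18a1 and Col20a1). CCAAT was found in 37.4% of all windows and in 13 of the 42, and TATAAA in 13.6% and in 7. These matches describe letters and not binding.

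Of 52 members with a mean of at least 1 FPKM, which were tested, 21 were higher in libraries labelled knockout, 18 were lower and 13 did not pass at a limma adjusted p of 0.05. Over all 13778 genes tested 68.9% passed, 35.2% higher and 33.7% lower, so the number of members that changed is close to that of the table as a whole, and the members are described below by class and by size. The median log2 fold change was -0.03 over the members and 0.01 over all genes tested. The groups did not overlap for 39 of 52 members, against 74.3% of all genes tested. Every knockout library lay above every control library for 21 members, against 37.9% of all genes tested, and below for 18, against 36.3%. A change of over 2-fold in mean FPKM was called higher for 6 members, against 8.49% of all genes tested, and lower for 11, against 10.8%. Among the authors' own tests in the authors' deposited table, 24 members were higher and 17 lower at an FDR of 0.05, where 60.5% of all deposited genes passed. The limma calls shared 21 of those rises and 17 of those falls, and Col1a1, Col6a3 and Col10a1 were called in the authors' deposited table alone. Loxl4 was called lower by limma alone, with an FDR of 0.0655 in the authors' deposited table.

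By class, 6 of 8 basement membrane collagens rose and 1 fell (median log2 fold change 0.71), 2 of 11 fibrillar collagens rose and 4 fell (median -0.13), 4 of 21 other collagens rose and 12 fell (median -0.38), and 9 of 12 processing genes rose and 1 fell (median 0.42). Of all genes tested 35.2% rose and 33.7% fell. The classes were not tested against each other. In a bulk organ, fewer cells of a type and less RNA per cell cannot be told apart.

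**Figure D1:**
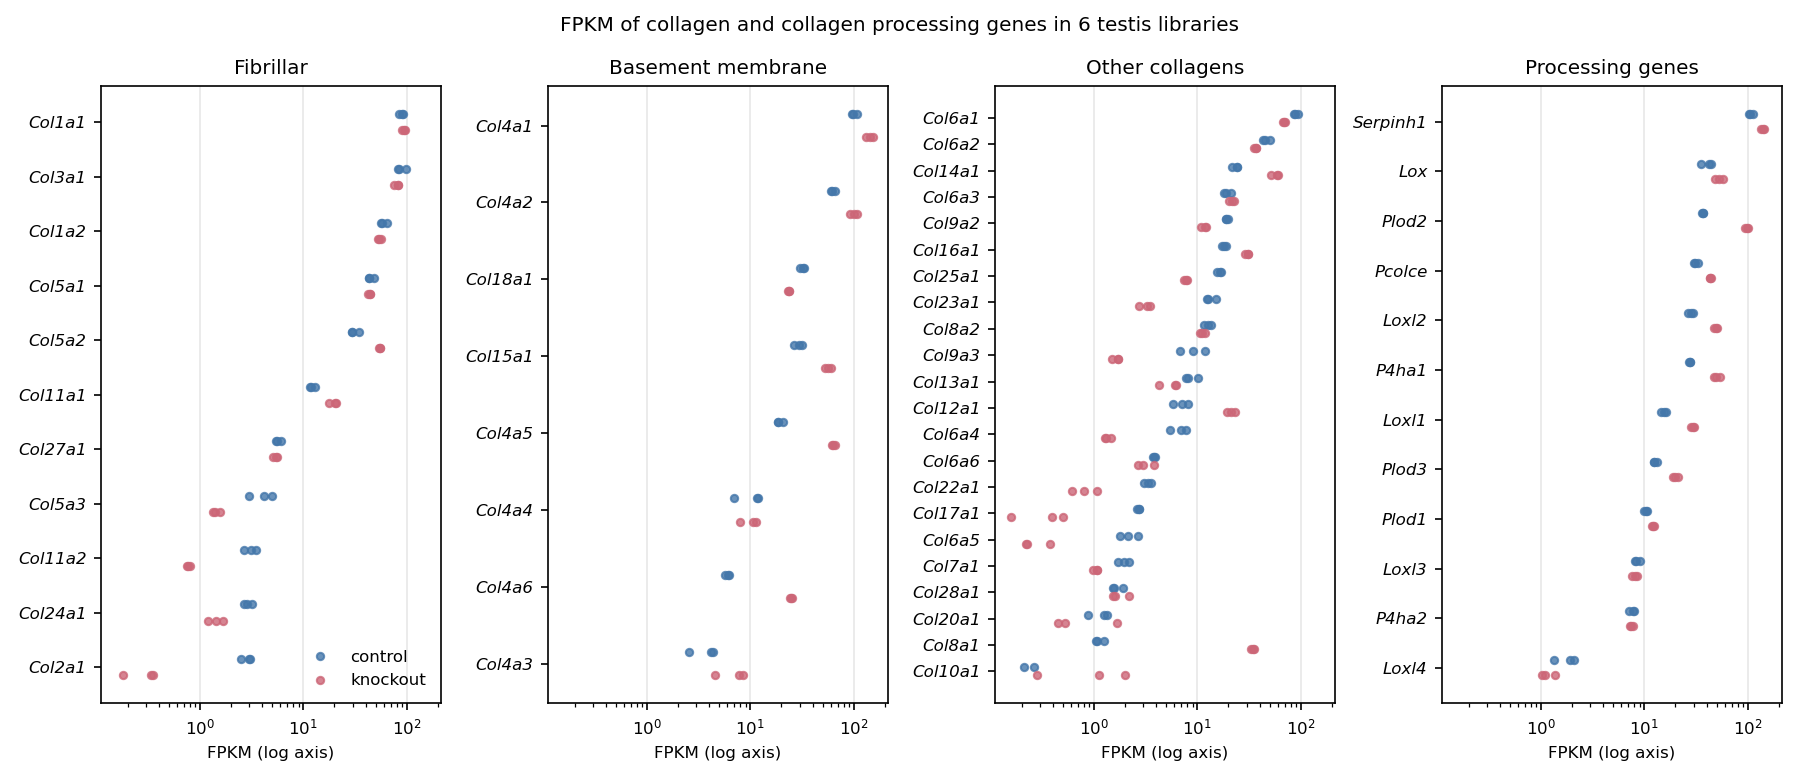
FPKM of each member (horizontal log axis) in the 3 control (blue) and 3 knockout (red) libraries, 1 point a library, with 4 panels for the classes and genes ordered by control level. The value of 0 FPKM of Col10a1 in control library 1 is not drawn. Col8a1 stands farthest apart, at 1.05 to 1.26 FPKM in control and 33.3 to 35.6 FPKM in knockout libraries.

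Summed over the class, basement membrane collagens had 279, 255 and 253 FPKM in controls and 406, 452 and 424 FPKM in knockouts. Fibrillar collagens had 367, 329 and 334 FPKM in controls and 339.9, 361 and 362 FPKM in knockouts. The sums of the basement membrane class lie apart in the groups and those of the fibrillar class overlap. As a share of all collagen FPKM, the basement membrane class went from 28.7 ± 0.389% to 38.7 ± 0.733% (SD, n = 3) and the fibrillar class from 37.6 ± 0.412% to 32.1 ± 0.496%. Other collagens summed to 297 to 319 FPKM in control and 309.6 to 329.8 FPKM in knockout libraries. Of their 21 tested members 16 were called (4 higher and 12 lower), beside 68.9% called of all genes tested.

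**Figure D2:**
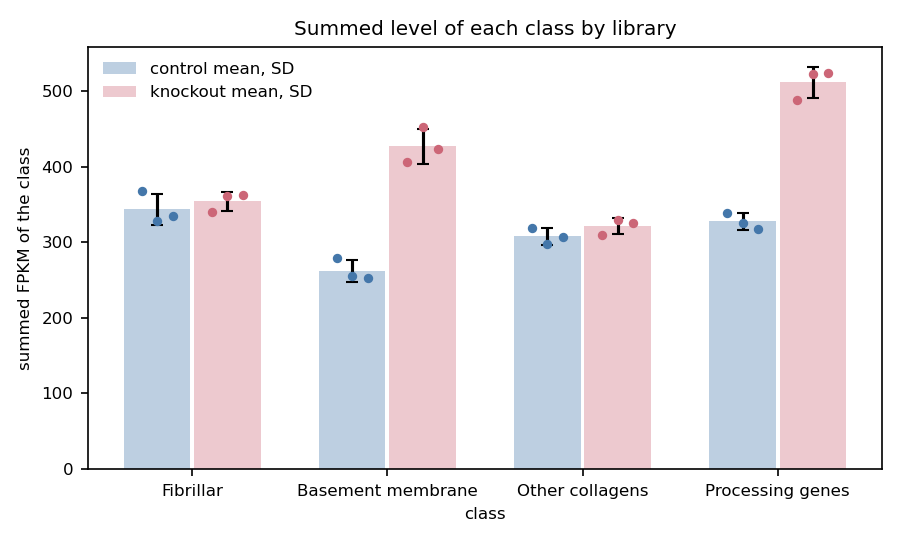
Summed FPKM of each class (vertical axis), with bars for the group mean, error bars for the SD over 3 libraries and points for the libraries. Basement membrane collagens and processing genes are higher in every knockout library (406 to 452 and 488 to 524 FPKM) than in any control library (253 to 279 and 317 to 339 FPKM), while the other classes overlap.

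Collagen IV assembles from chains encoded by 3 head-to-head gene pairs. Col4a1 and Col4a2 (chromosome 8, 11198423 to 11312826 and 11312805 to 11449287, GRCm38) encode the chains found in nearly every basement membrane and had the highest FPKM of the 8 basement membrane collagens. Col4a1 had 108, 95.6 and 98.0 FPKM in controls and 132, 152 and 144 FPKM in knockouts, a log2 fold change of 0.50 (SE 0.07, limma adjusted p = 0.000188). Col4a2 had 65.5, 59.8 and 61.2 FPKM in controls and 92.5, 106 and 101 FPKM in knockouts (log2 fold change 0.68, SE 0.06, limma adjusted p = 1.64e-05). Every knockout library lay above every control library for both genes.

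Col4a5 and Col4a6 (chromosome X, 141475385 to 141689234 and 141165403 to 141474076) encode chains that join in basement membranes such as those of smooth muscle and of the skin, and COL4A5 mutations cause Alport syndrome in humans. Col4a5 had 20.7, 18.6 and 18.7 FPKM in controls and 61.5, 66.0 and 62.5 FPKM in knockouts, 3.27-fold more (log2 fold change 1.66, SE 0.05, limma adjusted p = 4.65e-08). Col4a6 had 6.16, 5.68 and 6.07 FPKM in controls and 24.5, 25.3 and 24.5 FPKM in knockouts, 4.15-fold more (log2 fold change 1.89, SE 0.05, limma adjusted p = 1.8e-08). The groups were far apart and the libraries of a group close to each other in both genes.

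Col4a3 and Col4a4 (chromosome 1, 82586921 to 82722059 and 82452558 to 82586849) encode partner chains of Col4a5 in the glomerular basement membrane of the kidney. Col4a3 had 4.15, 4.35 and 2.54 FPKM in controls and 7.73, 8.43 and 4.59 FPKM in knockouts (log2 fold change 0.75, SE 0.22, limma adjusted p = 0.0138), and without knockout replicate 1 it did not pass (limma adjusted p = 0.0522). Col4a4 had 11.6, 11.9 and 6.96 FPKM in controls and 11.3, 10.7 and 7.91 FPKM in knockouts, a difference of -0.01 with a 95% interval from -0.44 to 0.43 on the log2 scale. In each group the library numbered 3 was the lowest for both genes.

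Col15a1 and Col18a1 encode multiplexins, collagens of the basement membrane zone, and the end of the Col18a1 product is released as endostatin. Col15a1 (chromosome 4, 47208161 to 47313167) had 31.3, 29.5 and 26.4 FPKM in controls and 52.7, 59.8 and 56.0 FPKM in knockouts, 1.93-fold more (log2 fold change 0.93, SE 0.07, limma adjusted p = 4.8e-06). Col18a1 (chromosome 10, 77052178 to 77166548) had 32.1, 30.1 and 32.9 FPKM in controls and 23.1, 23.4 and 23.8 FPKM in knockouts, 1.35-fold less (limma adjusted p = 3.69e-05). The multiplexins, at like levels in control, thus moved in opposite directions with no overlap of the groups.

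The major fibrillar genes did not pass the test. Col1a1 (chromosome 11, 94936224 to 94953042), which encodes the main chain of type I collagen, had 91.1, 84.6 and 90.7 FPKM in controls and 89.2, 95.8 and 93.5 FPKM in knockouts, a log2 difference of 0.06 with a 95% interval from -0.05 to 0.18 (limma adjusted p = 0.281). In the authors' deposited table its rise passed, with a log2 fold change of 0.11 and an FDR of 0.0423. Col1a2, the gene of the partner chain, had 64.6, 56.8 and 58.2 FPKM in controls and 53.2, 54.4 and 56.4 FPKM in knockouts. Its groups did not overlap, but the difference of -0.13 did not pass (limma adjusted p = 0.0661), and it passed without control replicate 2 (limma adjusted p = 0.0287).

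Col3a1, the gene of type III collagen of elastic soft tissue, had 97.5, 82.7 and 83.4 FPKM in controls and 74.8, 81.8 and 82.8 FPKM in knockouts (log2 difference -0.13, 95% interval -0.30 to 0.03, limma adjusted p = 0.129). Col5a1, a type V chain gene whose product helps to start fibrils, had 48.0, 43.2 and 43.4 FPKM in controls and 42.2, 44.2 and 44.5 FPKM in knockouts (95% interval of the log2 difference -0.15 to 0.08). Col27a1 was at 5.05 to 6.14 FPKM over the 6 libraries and did not pass either. For these genes the groups overlapped, which sets a bound on the size of a difference but does not show equal levels.

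Among minor fibrillar chains, Col5a2 and Col11a1 rose. Col5a2 (chromosome 1, 45374321 to 45503282), a partner of Col5a1, had 34.3, 29.4 and 29.7 FPKM in controls and 53.5, 54.9 and 54.9 FPKM in knockouts, 1.75-fold more (log2 fold change 0.79, SE 0.06, limma adjusted p = 5.47e-06). Col11a1, a type XI chain gene, went from 12.1 ± 0.667 to 19.6 ± 1.61 FPKM (SD, n = 3). Both genes lay above control in every knockout library.

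Col2a1, Col11a2, Col5a3 and Col24a1 fell from low control levels. Col2a1 (chromosome 15, 97975602 to 98004695), the gene of the main collagen of cartilage and an established SOX9 target there, had 3.07, 2.99 and 2.49 FPKM in controls and 0.352, 0.181 and 0.338 FPKM in knockouts, 9.82-fold less, on 175 to 244 reads in control and 12 to 26 reads in knockout libraries (log2 fold change -1.58, SE 0.11, limma adjusted p = 3.41e-06). Col11a2, also a cartilage chain gene, had 2.67, 3.46 and 3.12 FPKM in controls and 0.748, 0.795 and 0.762 FPKM in knockouts. Col5a3 had 4.19, 5.01 and 3.00 FPKM in controls and 1.55, 1.34 and 1.39 FPKM in knockouts. Col24a1 went from 2.91 ± 0.270 to 1.44 ± 0.239 FPKM, and in none of these 4 genes did the groups overlap. Col2a1 and Col11a2 reached the mean of 1 FPKM needed for the test only through their control levels.

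**Figure D3:**
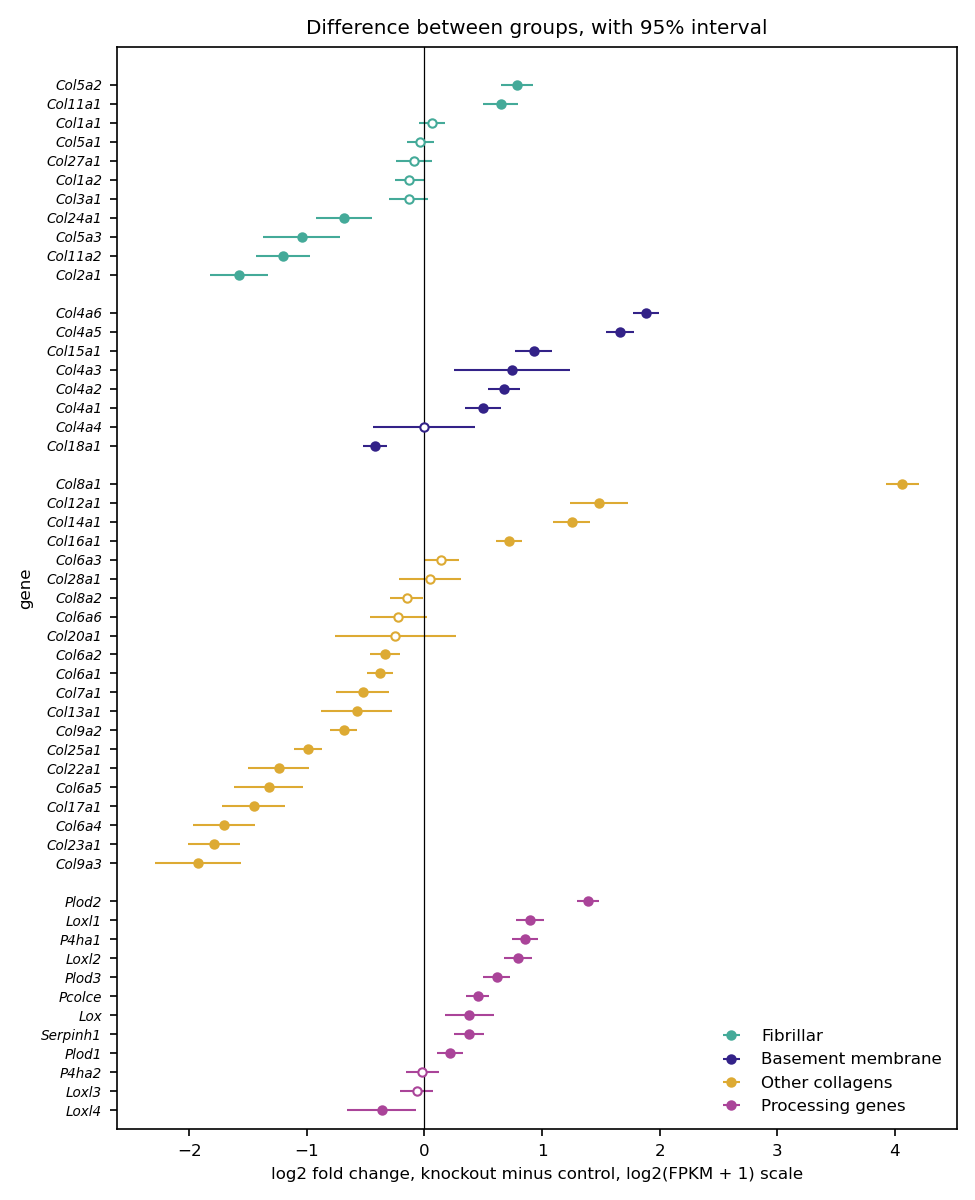
Log2 fold change of the 52 tested members, knockout minus control on the log2(FPKM + 1) scale (horizontal axis), with 95% intervals from limma, by class. Filled points passed at an adjusted p of 0.05. Col8a1 is the farthest to the right, at 4.06, and Col9a3 the farthest to the left, at -1.93.

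Short-chain collagens gave the largest change of any member. Col8a1 (chromosome 16, 57624258 to 57754737) encodes a type VIII chain known from vessel walls and from Descemet's membrane of the cornea. It had 1.05, 1.26 and 1.07 FPKM in controls and 33.3, 35.6 and 34.6 FPKM in knockouts, 30.6-fold more, on 51 to 88 reads in control and 2006 to 2099 reads in knockout libraries (log2 fold change 4.06, SE 0.06, limma adjusted p = 1.6e-09). Col8a2, the gene of its partner chain, had 12.6, 11.6 and 13.5 FPKM in controls and 10.7, 11.2 and 11.8 FPKM in knockouts. That difference of -0.15 did not pass (limma adjusted p = 0.0583) and it passed under 4 alternatives, at adjusted p-values from 0.0211 to 0.0495. Col10a1, a gene of hypertrophic cartilage with a mean under 1 FPKM, was not tested and had 0, 9 and 10 reads in control and 11, 69 and 40 reads in knockout libraries.

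Fibril-associated collagens sit on the surface of fibrils, and of 7 tested 3 were higher and 3 lower. These shares, 42.9% each way, are not far from the 35.2% higher and 33.7% lower of all genes tested. Col14a1 (chromosome 15, 55307750 to 55520803) had 24.2, 21.6 and 24.4 FPKM in controls and 52.1, 60.9 and 58.5 FPKM in knockouts (log2 fold change 1.25, SE 0.07, limma adjusted p = 8.6e-07). Col12a1 rose 3.03-fold, from 7.01 ± 1.13 to 21.3 ± 2.12 FPKM. Col16a1 had 18.9, 17.4 and 18.2 FPKM in controls and 31.2, 31.1 and 29.2 FPKM in knockouts. Knockout libraries of these genes lay above all controls.

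The type IX chain genes, whose products coat cartilage fibrils, fell. Col9a3 (chromosome 2, 180597790 to 180622189) had 9.0, 6.82 and 11.9 FPKM in controls and 1.73, 1.5 and 1.69 FPKM in knockouts, 5.63-fold less (log2 fold change -1.93, SE 0.16, limma adjusted p = 9.98e-06). Col9a2 fell 1.66-fold from 19.3 ± 0.504 FPKM, and Col22a1, found at tissue junctions, fell 3.99-fold from 3.30 ± 0.250 FPKM. Col20a1, at 0.453 to 1.66 FPKM, did not pass. Both type IX genes lay below control in every knockout library.

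Collagen VI makes beaded filaments next to cells. Col6a1 (chromosome 10, 76708792 to 76726168) had 94.2, 87.6 and 85.9 FPKM in controls and 66.8, 69.7 and 69.2 FPKM in knockouts (log2 fold change -0.38, SE 0.05, limma adjusted p = 0.000141). Col6a2 had 50.1, 45.6 and 43.3 FPKM in controls and 35.3, 36.9 and 37.0 FPKM in knockouts (log2 fold change -0.34, limma adjusted p = 0.000624). Col6a3, the gene of the long chain that completes the classical filament, had 21.3, 19.1 and 17.9 FPKM in controls and 20.3, 22.5 and 21.9 FPKM in knockouts and did not pass (limma adjusted p = 0.0806, and 0.0161 without control replicate 1). Its difference was positive, at 0.14, beside the falls of its partners.

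The alternative long chain genes Col6a4, Col6a5 and Col6a6 lie in a row on chromosome 9. Col6a4 (105989454 to 106096783) had 6.95, 7.78 and 5.45 FPKM in controls and 1.32, 1.45 and 1.27 FPKM in knockouts, 4.98-fold less (log2 fold change -1.71, SE 0.12, limma adjusted p = 3.08e-06). Col6a5 fell 8.07-fold, from 2.21 ± 0.458 to 0.273 ± 0.0862 FPKM. Col6a6, 30.6 kb from Col6a5, had 3.90, 3.75 and 3.82 FPKM in controls and 2.69, 2.96 and 3.83 FPKM in knockouts and did not pass (limma adjusted p = 0.0904), with knockout library 3 inside the control range.

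Membrane-spanning collagens were lower for all 4 deposited genes, against 33.7% of all genes tested. Col23a1 (chromosome 11, 51289920 to 51583918) had 12.3, 12.6 and 15.1 FPKM in controls and 3.24, 2.73 and 3.46 FPKM in knockouts, 4.24-fold less (log2 fold change -1.79, SE 0.10, limma adjusted p = 8.2e-07). Col25a1, a gene expressed in neurons, fell 2.11-fold from 16.4 ± 0.680 FPKM. Col17a1, the gene of the hemidesmosome collagen BP180, fell 7.59-fold from 2.68 ± 0.0455 FPKM, on 10 to 36 reads in knockout libraries. Col13a1 fell 1.57-fold, and the anchoring fibril gene Col7a1 fell 1.87-fold from 1.95 ± 0.245 FPKM. Col28a1, at 1.53 to 2.17 FPKM, did not pass.

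Lysyl hydroxylases prepare collagen for cross-linking, and all 3 genes rose, against 35.2% of all genes tested. Plod2 (chromosome 9, 92542223 to 92608428), whose enzyme acts on the ends of fibrillar chains, had 37.1, 36.1 and 36.6 FPKM in controls and 94.1, 99.9 and 98.8 FPKM in knockouts, 2.67-fold more (log2 fold change 1.39, SE 0.04, limma adjusted p = 3.24e-08). Plod3, which also adds sugars to hydroxylysine, rose 1.57-fold from 12.6 ± 0.469 FPKM, and Plod1 rose 1.18-fold from 10.3 ± 0.406 FPKM. The rise of Plod2 was the largest among the processing genes.

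Prolyl 4-hydroxylase makes the hydroxyproline that keeps the helix stable. P4ha1 (chromosome 10, 59323296 to 59373304) had 27.5, 27.5 and 27.0 FPKM in controls and 47.3, 49.8 and 53.6 FPKM in knockouts (log2 fold change 0.85, SE 0.05, limma adjusted p = 1.21e-06). P4ha2 had 7.80, 7.87 and 7.12 FPKM in controls and 7.44, 7.28 and 7.76 FPKM in knockouts, with a 95% interval of the log2 difference from -0.15 to 0.12. Serpinh1, which encodes the collagen chaperone HSP47, had 113, 106 and 103 FPKM in controls and 133, 142 and 145 FPKM in knockouts (log2 fold change 0.38, limma adjusted p = 0.000341). Pcolce, the enhancer of the protease that trims fibrillar procollagen, went from 31.4 ± 1.43 to 43.3 ± 0.322 FPKM. P4ha1, Serpinh1 and Pcolce were above control in every knockout library and P4ha2 overlapped.

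The lysyl oxidase family, which cross-links collagen and elastin, had 3 of 5 genes higher (60%, against 35.2% of all genes tested). Loxl1 had 16.2, 14.4 and 15.6 FPKM in controls and 28.5, 30.5 and 29.7 FPKM in knockouts (log2 fold change 0.90, SE 0.05, limma adjusted p = 1.12e-06). Loxl2, known for acting on collagen IV, had 29.4, 28.0 and 26.3 FPKM in controls and 46.9, 50.8 and 49.8 FPKM in knockouts (log2 fold change 0.79, limma adjusted p = 2.38e-06). Lox itself had 44.1, 41.8 and 35.5 FPKM in controls and 47.7, 58.0 and 53.0 FPKM in knockouts (log2 fold change 0.38, limma adjusted p = 0.00531). Loxl3, at 7.68 to 9.14 FPKM, did not pass. Loxl4 fell from 1.80 ± 0.393 to 1.16 ± 0.180 FPKM (limma adjusted p = 0.0324) although its groups overlapped, and it did not pass without control replicate 1 or 2 or without knockout replicate 2 or 3 (limma adjusted p from 0.0802 to 0.117).

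Ratios of gene pairs within a library do not depend on library scaling, and 15 were computed. In 14 the groups did not overlap. For single genes this held for 74.3% of all genes tested, and no share was computed for ratios of other gene pairs. With 3 libraries against 3 the exact permutation test cannot go below p = 0.10, which those 14 reached (0.107 after Benjamini-Hochberg adjustment over the 15). The ratio of Col8a1 to Col8a2 was 0.0835, 0.109 and 0.0792 in control and 3.12, 3.19 and 2.95 in knockout libraries, so that the more abundant of these genes was Col8a2 in every control and Col8a1 in every knockout library. Col5a2 to Col5a1 went from 0.715, 0.681 and 0.684 to 1.27, 1.24 and 1.23, also across 1.

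Within the head-to-head pairs, the ratio of Col4a1 to Col4a2 was 1.64, 1.60 and 1.60 in control and 1.43, 1.43 and 1.42 in knockout libraries. The ratio of Col4a5 to Col4a6 was 3.36, 3.27 and 3.08 in control and 2.51, 2.61 and 2.55 in knockout libraries. The ratio of Col4a3 to Col4a4 was 0.358, 0.365 and 0.365 in control, a narrow range although control library 3 had less of both, and 0.683, 0.791 and 0.580 in knockout libraries. Across pairs, Col4a5 to Col4a1 went from 0.193, 0.194 and 0.191 to 0.464, 0.434 and 0.435, 2.31-fold. The ratio of Col1a1 to Col4a1, a fibrillar gene over a basement membrane gene, went from 0.847, 0.885 and 0.925 to 0.674, 0.631 and 0.652.

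Col6a1 to Col6a2 was the pair whose groups overlapped, at 1.88, 1.92 and 1.98 in control and 1.89, 1.89 and 1.87 in knockout libraries (exact permutation p = 0.30). Col6a3 to Col6a1 went from 0.226, 0.217 and 0.209 to 0.304, 0.323 and 0.316. Col1a1 to Col1a2 went from 1.41, 1.49 and 1.56 to 1.68, 1.76 and 1.66, and Col3a1 to Col1a1 from 1.07, 0.978 and 0.919 to 0.839, 0.854 and 0.886. Col18a1 to Col15a1 went from 1.03, 1.02 and 1.25 to 0.437, 0.391 and 0.425. Among enzymes, Plod2 to Plod1 went from 3.57, 3.37 and 3.70 to 7.95, 8.24 and 7.90, P4ha2 to P4ha1 from 0.283, 0.287 and 0.264 to 0.157, 0.146 and 0.145, and Lox to Loxl1 from 2.73, 2.90 and 2.27 to 1.68, 1.90 and 1.78. Ratios between genes depend on the exon lengths the authors used, and their differences between groups do not.

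**Figure D4:**
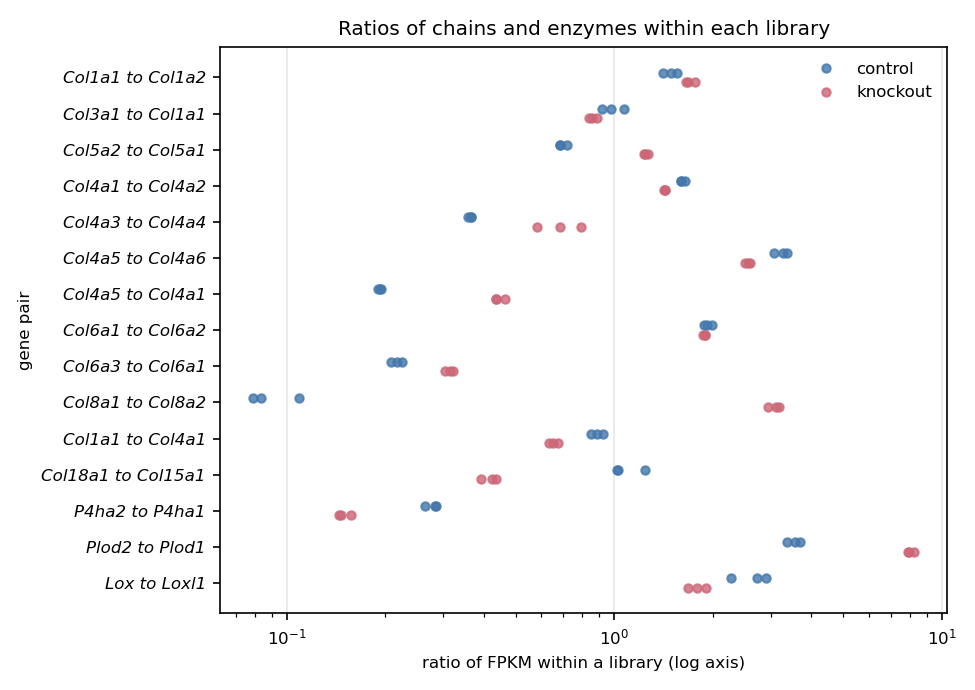
Ratio of FPKM of 15 gene pairs within each library (horizontal log axis), with 3 control (blue) and 3 knockout (red) points a pair. Col8a1 to Col8a2 moves the most, from 0.0792 to 0.109 in control to 2.95 to 3.19 in knockout libraries, and Col6a1 to Col6a2 overlaps.

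Of 7 pairs of consecutive members within 200 kb, 4 had the same call (Col6a2 with Col6a1, Col4a1 with Col4a2, Col6a5 with Col6a4 and Col4a6 with Col4a5). Col6a6 and Col6a4, which have Col6a5 between them and differ in call, were not counted as a pair. Over all genes tested 68.9% passed, and the share of neighbouring genes with the same call was not computed. Col5a2 rose while Col3a1, 24.6 kb away on chromosome 1, did not pass, and Col4a3 rose while Col4a4, 71 bases away, did not pass.

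Other genes of the collagen pathway were read from lists of textbook genes. For collagen synthesis and secretion 23 were tested, with 14 higher, 4 lower and 5 not past the threshold (median log2 fold change 0.21). That is 60.9% higher and 17.4% lower, against 35.2% and 33.7% of all genes tested. P4ha3, a further prolyl 4-hydroxylase gene, rose from 6.58 ± 0.349 to 16.6 ± 0.50 FPKM, and Tll1, a procollagen protease gene, from 4.10 ± 0.771 to 17.2 ± 0.340 FPKM. The procollagen N-proteinase genes Adamts2 and Adamts3 fell, from 20.9 ± 1.15 to 16.8 ± 0.245 FPKM and from 3.64 ± 1.13 to 1.25 ± 0.0863 FPKM. Receptors for collagen numbered 10, of which 7 rose and 2 fell (70% and 20%, beside the same shares of all genes tested, median 0.48). Ddr1, a receptor kinase gene for collagen, rose from 22.7 ± 1.71 to 46.9 ± 2.03 FPKM, and Ddr2, its relative in mesenchymal cells, fell from 14.9 ± 2.06 to 9.09 ± 0.526 FPKM.

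Of 19 tested laminin, nidogen and other basement membrane partner genes, 11 were higher and 5 lower (57.9% and 26.3%, median 0.40). Of all genes tested 35.2% were higher and 33.7% lower. The nidogen gene Nid2 rose from 29.6 ± 0.597 to 80.4 ± 2.43 FPKM, and the laminin gene Lama5 from 4.0 ± 0.385 to 26.0 ± 2.12 FPKM. Lamc3 fell from 10.9 ± 1.74 to 1.86 ± 0.250 FPKM and Lama1 from 16.9 ± 0.780 to 9.72 ± 0.452 FPKM. Of 14 tested fibril regulators, 5 were higher and 4 lower (median -0.04), with Bgn, the biglycan gene, at 68.6 ± 1.37 and 129 ± 12.9 FPKM and Dcn, the decorin gene, at 119 ± 11.2 and 76.0 ± 3.90 FPKM in control and knockout libraries. These shares of the fibril regulators, 35.7% higher and 28.6% lower, are near the 35.2% and 33.7% of all genes tested. Of 10 tested genes of collagen breakdown and its inhibitors, 7 were higher and 1 lower (70% and 10%, median 0.59), with the inhibitor gene Timp1 at 21.0 ± 0.718 and 47.1 ± 2.19 FPKM.

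Markers of several cell types moved in the same libraries as the collagens. Their counts, here and in the next paragraph, stand beside 35.2% higher and 33.7% lower of all genes tested. All 17 tested macrophage markers rose, with a summed level of 81.1 to 93.6 FPKM in control and 648 to 755 FPKM in knockout libraries. Of 12 mesothelial and surface epithelial markers 9 rose and 2 fell, with sums of 111 to 115 FPKM and 323 to 351 FPKM. Of 16 peritubular myoid and smooth muscle markers 9 rose and 2 fell (sums of 313 to 337 FPKM and 443 to 504 FPKM), and of 15 endothelial markers 8 rose and 2 fell (162 to 167 FPKM and 203 to 236 FPKM). Of 12 tested interstitial fibroblast markers 2 rose and 7 fell, with sums that overlapped, at 400 to 458 FPKM and 442 to 457 FPKM. The rise of Mgp, from 43.9 ± 6.57 to 145 ± 9.20 FPKM, offset falls of other markers in these sums. The overlap of the sums therefore does not show that the other fibroblast markers were unchanged.

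Of 18 Sertoli cell markers 5 rose and 13 fell (550.2 to 582 FPKM in control and 336 to 370.0 FPKM in knockout libraries). Wt1, which rose, is counted both there and among the mesothelial and surface epithelial markers. All 10 Leydig cell markers fell (896 to 977 FPKM and 368 to 425 FPKM), and 10 of 12 tested spermatogonial markers fell (295 to 361 FPKM and 63.3 to 104 FPKM). The part of these cell types in the rises and falls of collagen genes was not tested.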

How the data were processed

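Total RNA was isolated from frozen whole testes with RNeasy (Qiagen), and STAR made the alignments, per the labels' protocols. The submitters' processing notes name the build GRCm38 and, among the authors' tools, DESeq2 1.22.2. On counting, strand and duplicates, no detail was given in the sources used here, so reads from exons shared with another gene are uncertain (at most 11.9% of a member's exon bases, in Plod3). The deposited table holds the authors' FPKM for 6 libraries, their log2 group means and log2 fold changes, −log10 p-values, and p-values with FDR, per the file headers.

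Tests used limma 3.58.1 (R 4.3.3) with a trend on log2(FPKM + 1), two-sided, over the 13778 genes whose mean reached 1 FPKM. P-values were adjusted over all of these by Benjamini-Hochberg, at a threshold of 0.05. Folds are ratios of mean FPKM. Log2 fold changes carry the pseudocount of 1 and so understate changes of low genes. Columns headed control and mutant were matched to the labelled libraries by group and number. FPKM stepped in whole reads for 100% of genes (within 0.003 reads), which gave reads and library totals, and 48.2% of the implied exon lengths matched GENCODE M21. Counts of reads carry counting error and also the spread between libraries. Ratios were tested by exact permutation. The limma step was tested on simulated data. Values in each library are given for the 4 most abundant members of each class, for the 4 called members with the largest log2 change, and for others where their role called for it. Of other lists at most the 2 smallest p-values in each direction were named, apart from Cyp11a1 and Star, given as examples of steroid synthesis genes. Members, classes and lists were chosen with earlier results of these data known. Coordinates come from the deposited table (GRCm38, counted from 1) and promoters from RefSeq (GRCm38.p6). Alternatives were a pseudocount of 0.1, other filters, omission of each library, a replicate block, median-ratio scaling, limma-voom on the recovered reads and a threshold of 0.01. Python 3.11.15, pandas 2.3.3, scipy 1.17.1 and matplotlib 3.10.9 were used.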

Additional observations from a re-analysis of the deposited data

How the results depend on the processing

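Members called higher numbered 20 to 22 under every alternative run. Members called lower numbered 17 to 20, of 50 to 53 tested, except among genes whose mean reached 10 FPKM, where 32 members were tested and 5 were lower. There limma called 0 fibrillar collagens lower (1, Col1a2, at an unadjusted p under 0.05), 4 other collagens and 0 processing genes (0 at an unadjusted p under 0.05), since fewer low genes were tested. Loxl4 was the 1 processing gene called lower. At a threshold of 0.01 limma called 0 (1 at an unadjusted p under 0.05), with 1 library left out 0 to 1, and limma-voom called 1. No called member reversed direction under these alternatives. Under limma-voom Col6a6 and Col8a2 also passed as lower (adjusted p = 0.0373 and 0.0286). Replicate numbers did not pair the libraries (correlations of deviations -0.00713, -0.016 and 0.0966), and with the replicate block 21 members were higher and 19 lower. Genes with few reads, such as Col10a1, Col17a1 and Col20a1, are limited by depth.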

Other observations

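Collagen genes were also divided by their mean over all 6 libraries, a division chosen after the values were seen and not tested. Of 17 tested collagens with a mean under 10 FPKM 12 were lower (70.6%), 1 (Col4a3) was higher and 4 did not pass, while of all 6990 genes tested at that level 40.4% were lower and 27.1% higher. Of 23 with a mean of 10 FPKM or more 11 were higher (47.8%), 5 lower (21.7%) and 7 did not pass, near the 43.6% higher and 26.8% lower of all 6788 genes tested at that level. The tilt towards falls at low and rises at high levels was thus also present in the table as a whole. Each deposited gene reaches 1 FPKM in at least 1 library, and each tested gene a mean of 1 FPKM over the 6 libraries. Col2a1, Col6a5, Col11a2, Col17a1 and Col22a1, all called lower, met that mean only through their control levels, with knockout means of 0.273 to 0.827 FPKM. The part of these limits in the falls of low genes was not tested.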
